A study of Homo sapiens with 9 samples.

Results

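The genes described here are 10 receptor tyrosine kinases of 5 families, chosen by name from the 60708 genes counted in all 9 libraries: *AXL*; *MET* and *MST1R*; *IGF1R* and *INSR*; *PDGFRA* and *PDGFRB*; and *FLT1*, *KDR* and *FLT4*. All 10 had counts and all 10 passed the filter on low counts when the *SNAI1*-KO libraries were compared with WT. The libraries were RNA-sequencing libraries of untreated cells labelled MDA-MB-231, a human triple-negative breast cancer line of basal, mesenchymal type, grown in medium with serum. Of these, 3 were labelled WT, and 3 each came from CS16 and CS19, both labelled *SNAI1*-KO. Both clones were expanded from a single cell after transfection with Cas9, a pool of guides against *SNAI1* and repair plasmids, and selection with puromycin, and no cloning is described for the WT cells. The *SNAI1*-KO genotype was therefore seen in 2 clones, and nothing in the labels says that replicates were separate cultures, so p-values measure the spread between libraries, which may be technical.

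Receptor tyrosine kinases are membrane proteins that dimerize when a ligand binds outside the cell and then phosphorylate each other and their adaptors inside it, which starts the RAS-MAPK, PI3K-AKT and phospholipase C pathways. AXL belongs to the TAM family with TYRO3 and MERTK, and is known for its high level in mesenchymal and drug-resistant carcinoma cells. MET and MST1R (RON) are the scatter factor receptors, IGF1R and INSR bind the insulin-like growth factors and insulin, the PDGF receptors mark fibroblasts and pericytes, and the VEGF receptors FLT1 (VEGFR1), KDR (VEGFR2) and FLT4 (VEGFR3) are best known from blood and lymphatic endothelium.

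The libraries held between 19527195 and 28627777 counted read pairs. The targeted gene, *SNAI1*, was not lower in the libraries labelled *SNAI1*-KO. It had 16, 38 and 21 counts in WT, 26, 40 and 49 in CS16, and 57, 94 and 94 in CS19 (log2 fold change of all *SNAI1*-KO against WT 0.89 ± 0.42 SE, edgeR adjusted p = 0.0838, and of CS19 alone 1.32 ± 0.42 SE, adjusted p = 0.0310). These tests turned on single libraries. *SNAI1* passed as higher in all *SNAI1*-KO libraries without WT replicate 2 (1.40, edgeR adjusted p = 0.0146) or CS16 replicate 1 (1.03, 0.0454), and in CS16 alone without WT replicate 2 (0.88, 0.0386). In CS19 alone it no longer passed without WT replicate 1 (edgeR adjusted p = 0.0869), WT replicate 3 (0.0743), CS19 replicate 2 (0.101) or CS19 replicate 3 (0.0675). The counts cover whole transcripts, so they do not show whether the protein was made. The neighbours *CDKN2A*, *CDKN2B* and *MTAP* on chromosome 9, a stretch that MDA-MB-231 is known to lack, had 0 counts in every library labelled WT, and in every library labelled *SNAI1*-KO they had at least 1106, 235 and 2139 counts. *CD44*, a surface marker abundant in MDA-MB-231, had between 11142 and 13853 counts in the WT libraries and at most 2 in the *SNAI1*-KO libraries, and 3 of the 5 tested markers of the labelled line were called lower (*CD44*, *KRT8*, *KRT18*). The other tested markers of the line, *VIM* and *ERBB2*, were not called. *VIM* was lower at adjusted p without reaching the fold-change cut-off (log2 fold change -1.52 ± 0.16 SE, edgeR adjusted p = 6.52e-06). *ERBB2*, which was listed as low in that line, did not pass (edgeR adjusted p = 0.0839). Of the 6 tested embryonic kidney markers, *SALL1*, *LHX1* and *EYA1* were called higher and *PAX8* lower. Over all genes tested, 12.6% were called higher and 14.3% lower. The labelled genotype can therefore not be told apart from whatever else separates these libraries, and "WT" and "*SNAI1*-KO" below name libraries as labelled. Among the WT libraries, replicate 2 stood apart. A chi-square of its counts over its degrees of freedom was 188 against replicate 1 and 230.2 against replicate 3, while that between replicates 1 and 3 was 14.6.

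The stretches before the transcription start are shown for the 4 receptors whose windows held a match to any of 3 scarce motifs, 2 of them lower in the *SNAI1*-KO libraries (*AXL*, *MST1R*) and 2 higher (*PDGFRA*, *FLT1*). Each line gives the 250 bases before the start in RefSeq (GRCh38), 5′ to 3′ on the gene's strand. The positions are chr19:41218973-41219222 (+) for *AXL*, chr3:49903874-49904123 (-) for *MST1R*, chr4:54229043-54229292 (+) for *PDGFRA* and chr13:28495129-28495378 (-) for *FLT1*. Capitals mark matches on either strand. The scarce motifs were the E-box form that SNAI1 is known to bind, CAGGTG, the motif of the AP-1 factors, TGANTCA, and the core promoter element called TATA box, searched as TATAAA. The motif of the SP1 factors, the GC box, was searched as GGGCGG and is frequent.
AXL: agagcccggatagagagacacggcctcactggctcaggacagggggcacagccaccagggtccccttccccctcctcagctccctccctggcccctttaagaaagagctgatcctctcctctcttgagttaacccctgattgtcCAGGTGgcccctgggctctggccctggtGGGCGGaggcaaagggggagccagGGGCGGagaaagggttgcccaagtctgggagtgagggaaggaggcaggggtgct
MST1R: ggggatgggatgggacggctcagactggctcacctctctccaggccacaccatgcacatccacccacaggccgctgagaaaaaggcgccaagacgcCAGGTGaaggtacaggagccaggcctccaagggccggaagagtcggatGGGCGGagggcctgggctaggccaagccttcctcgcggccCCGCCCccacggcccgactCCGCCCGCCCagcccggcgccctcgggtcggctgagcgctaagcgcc
PDGFRA: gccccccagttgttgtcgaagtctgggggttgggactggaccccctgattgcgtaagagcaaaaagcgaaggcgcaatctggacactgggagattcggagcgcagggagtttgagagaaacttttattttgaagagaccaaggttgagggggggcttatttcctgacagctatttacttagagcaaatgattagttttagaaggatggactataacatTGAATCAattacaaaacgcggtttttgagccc
FLT1: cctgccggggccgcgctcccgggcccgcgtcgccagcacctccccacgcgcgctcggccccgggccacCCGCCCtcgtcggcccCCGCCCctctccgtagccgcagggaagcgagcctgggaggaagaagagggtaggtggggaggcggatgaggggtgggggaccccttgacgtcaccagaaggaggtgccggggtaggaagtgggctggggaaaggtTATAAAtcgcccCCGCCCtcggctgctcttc
The RefSeq table had 11 entries for 9 of the receptors, with 2 each for *AXL* and *PDGFRA*. *FLT4* had no entry, so its promoter was not searched. CAGGTG was found in 2 of the 11 windows, 106 bases before the start of *AXL* and 154 before that of *MST1R*, and in 17.5% of all 35116 windows of the table. TGANTCA was found in 1, 32 bases before the start of *PDGFRA* (6.57% of all windows), and TATAAA in 1, 31 bases before the start of *FLT1* (10.7%). GGGCGG was found in 9 of the 11 windows and in 42.6% of all windows, and in *MST1R* and *INSR* some of its matches overlapped. A match describes letters only, and binding was not measured in these files.

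Of the 10 receptors, 7 were called in the *SNAI1*-KO libraries against WT. *FLT4*, *FLT1* and *PDGFRA* were higher, and *AXL*, *PDGFRB*, *MST1R* and *KDR* were lower. *MET* and *INSR* were lower at adjusted p without reaching the fold-change cut-off, and *IGF1R* did not pass the test. Receptors were called where the log2 fold change was 2 or more, up or down, and the adjusted p was below 0.05 in edgeR's quasi-likelihood test. Over all 19631 genes tested, 12.6% were called higher and 14.3% lower. At adjusted p alone 9 of the 10 receptors passed, against 63.7% of all genes tested, so a receptor's passing is to be read against a background where most genes did. The libraries were bulk RNA, in which fewer cells of a type and less RNA per cell cannot be told apart.

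**Figure D1:**
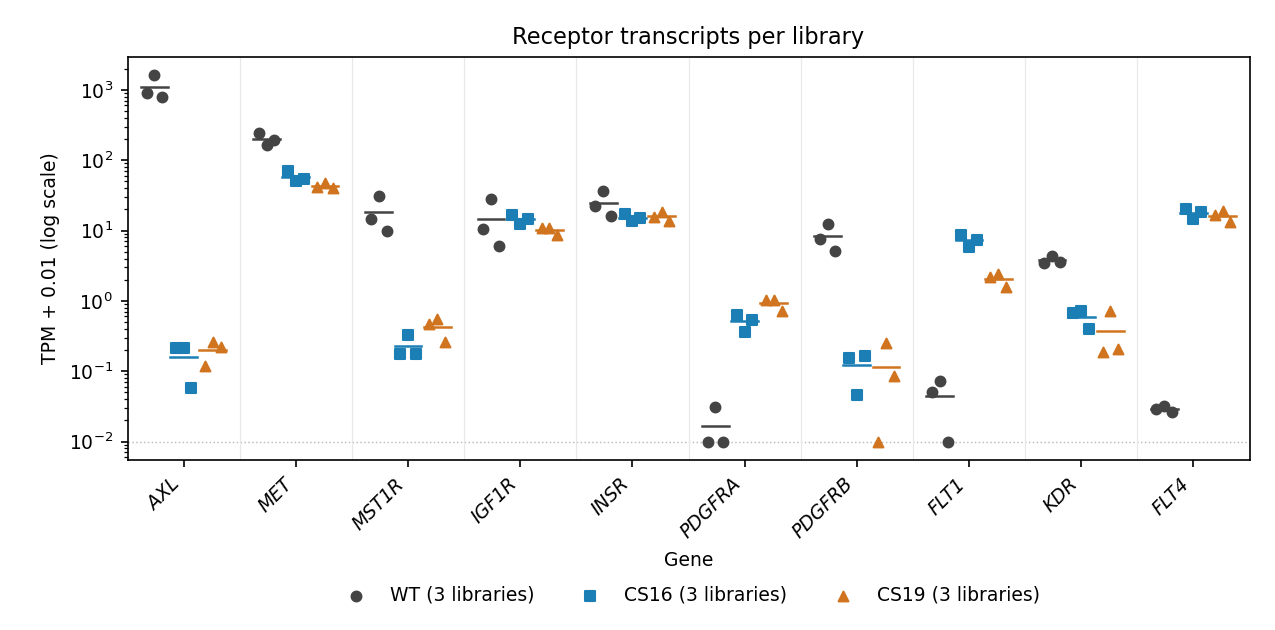
Transcript abundance per length (TPM) plus 0.01, on a log axis, of each receptor in each of the 9 libraries, with bars at the group means and the dotted line at a TPM of 0. The WT points of *AXL*, *MST1R*, *PDGFRB*, *KDR* and *MET* lie above all points of both clones, those of *PDGFRA*, *FLT1* and *FLT4* lie below them, and those of *IGF1R* span the clones.

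Levels of different genes were set side by side as TPM, which divides counts by exon length and scales each library to the same sum. In the WT libraries *AXL* led with 1104 ± 454 TPM (SD, n = 3), followed by *MET* with 201 ± 37.1. Their ranges overlapped neither each other's nor those of the other receptors. *INSR* (24.7 TPM), *MST1R* (18.5), *IGF1R* (14.7) and *PDGFRB* (8.26) came next, each overlapping in range with its neighbour in that order, and *KDR* stood at 3.74. *FLT1*, *FLT4* and *PDGFRA* were at 0.034, 0.019 and 0.0069 TPM, with overlapping ranges and between 0 and 4 counts in any WT library.

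In both clones *MET* led instead, with 57.7 ± 10.2 TPM in CS16 and 43.3 ± 3.91 in CS19 (SD, n = 3). *FLT4* followed in each, with 17.7 ± 2.89 and 16.3 ± 2.82 TPM, and its range overlapped that of *INSR*, the next, with 15.3 ± 1.82 and 15.9 ± 2.28. Then came *IGF1R*, with 14.7 ± 2.11 and 10.2 ± 1.27 TPM, and *FLT1*, with 7.26 ± 1.34 in CS16 and 2.05 ± 0.438 in CS19. *IGF1R* overlapped in range with *INSR* in CS16 and not in CS19. The other 5 receptors were below 1 TPM in the mean of either clone. *AXL*, the leading receptor in WT, was at 0.151 ± 0.089 and 0.189 ± 0.0721 TPM in the clones, and overlapped in range with *PDGFRB*, the lowest of the 10.

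Summed over the 10 receptors, the WT libraries held between 1024 and 1901 TPM and the *SNAI1*-KO libraries between 78.8 and 133.5. *AXL* made up 79.1 ± 5.51% of the WT sum (SD, n = 3) and 0.173 ± 0.0833% of the *SNAI1*-KO sum (SD, n = 6). The share of *MET* was 16.0 ± 6.28% in WT and 49.4 ± 2.00% in the *SNAI1*-KO libraries. *FLT4*, *INSR* and *IGF1R* together with *MET* thus made up most of what remained. *FLT4* held 16.8 ± 1.70% of the *SNAI1*-KO sum, *INSR* 15.6 ± 2.34% and *IGF1R* 12.1 ± 0.99%. The mean *AXL* share in WT was 76.0% without WT replicate 2, which had the highest share (85.4%).

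**Figure D2:**
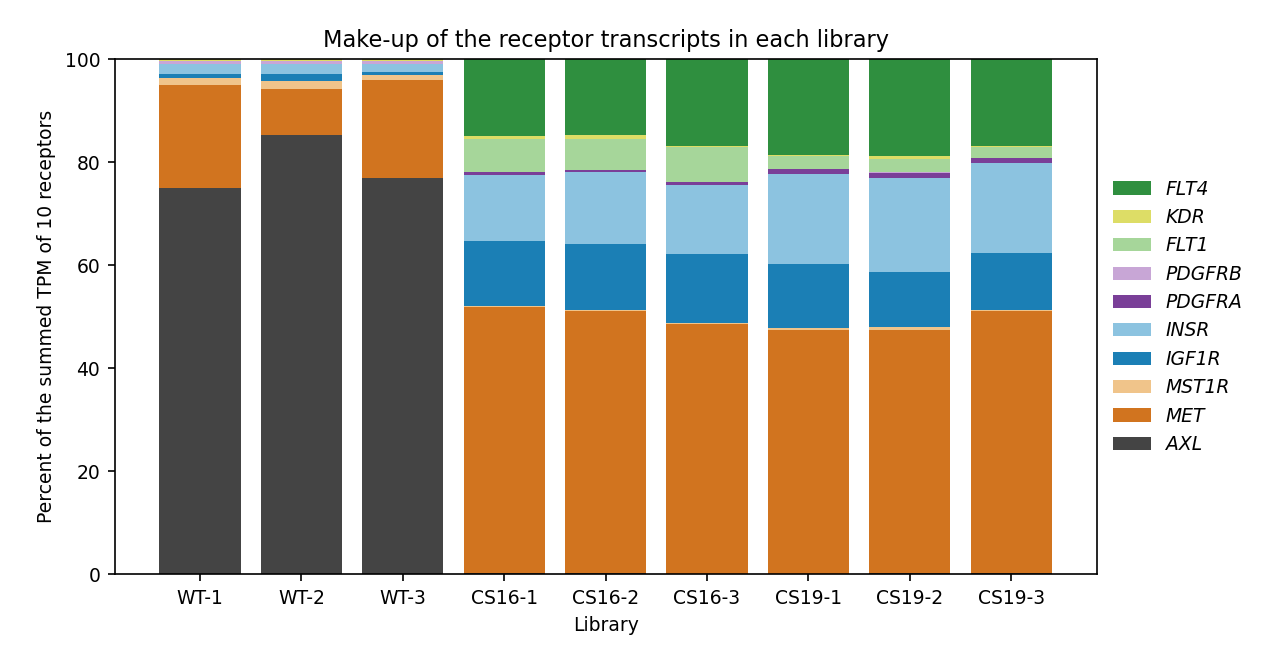
Percent of the summed TPM of the 10 receptors that each receptor takes, as stacked bars from 0 to 100 for each library. *AXL* takes between 75.1% and 85.4% of each WT bar, and *MET* between 47.2% and 51.8% of each clone bar, with *FLT4*, *INSR* and *IGF1R* next.

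*AXL* (chr19:41219223-41261766, + strand, GRCh38) was nearly lost from the libraries of both clones. It had 27031, 42415 and 28581 counts in the WT libraries, 6, 8 and 2 in CS16, and 4, 9 and 12 in CS19. The groups were far apart, with at most 12 counts in a clone library. On the TMM-scaled CPM, which are counts relative to library size, the mean went from 1744 ± 595 in WT (SD, n = 3) to 0.287 ± 0.131 in the *SNAI1*-KO libraries (SD, n = 6), a fitted difference of 5935-fold (log2 fold change -12.54 ± 0.37 SE, edgeR adjusted p = 4.62e-10). Its exons share 67 bases (1.31%) with a gene on the opposite strand, ENSG00000269652, which had 98, 127 and 109 counts in WT and 0 in all clone libraries. The authors counted without regard to strand, so reads in the shared bases cannot be assigned to either gene.

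The other TAM receptors were retained. *TYRO3*, activated by PROS1 and GAS6, had 567, 777 and 604 counts in WT, 1695, 1613 and 2217 in CS16, and 1624, 1814 and 2165 in CS19, so each clone library exceeded each WT library. Its rise of 1.19 ± 0.17 SE on the log2 scale passed at adjusted p (edgeR, 7.93e-05) and not at the fold-change cut-off. *MERTK*, best known for the clearance of dying cells, differed by -0.01 ± 0.13 SE (edgeR adjusted p = 0.965). Within the summed TPM of the 3 TAM receptors, *AXL* accounted for 97.2 ± 0.532% in WT (SD, n = 3) and 0.418 ± 0.192% in the *SNAI1*-KO libraries (SD, n = 6), where *TYRO3* held 54.2 ± 2.25% and *MERTK* 45.4 ± 2.10%.

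*GAS6*, the ligand of AXL, also fell. It had 3688, 10643 and 4184 counts in WT, 131, 147 and 178 in CS16, and 165, 140 and 227 in CS19. WT replicate 2 was the highest and all clone libraries lay far below the lowest WT library (log2 fold change -5.59 ± 0.33 SE, edgeR adjusted p = 5.32e-08, and -4.84 without WT replicate 2). *PROS1*, the anticoagulant protein S and ligand of TYRO3 and MERTK, had between 165 and 421 counts in WT and between 324 and 716 in the clones, and the ranges overlapped on the CPM scale (0.16 ± 0.25 SE, edgeR adjusted p = 0.590).

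*MET* (chr7:116672196-116798377, + strand), the receptor of hepatocyte growth factor, was lower in both clones but remained the most abundant of the 10 in the clones. The WT libraries had 10153, 6114 and 10016 counts, CS16 had 2890, 2766 and 3153, and CS19 had 2157, 2405 and 3259. WT replicate 2 was the lowest of the WT libraries and still above every clone library. The mean was 456 ± 91.8 CPM in WT (SD, n = 3) and 118.2 ± 17.5 in the *SNAI1*-KO libraries (SD, n = 6). This is a fitted difference of 3.85-fold (log2 fold change -1.95 ± 0.17 SE, edgeR adjusted p = 1.22e-06), just short of the cut-off of 2. Without WT replicate 2 the log2 fold change was -2.11 and without CS16 replicate 1 it was -2.002, and *MET* was then called.

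*MST1R* (chr3:49887002-49903873, - strand), the receptor of macrophage-stimulating protein, had 453, 823 and 369 counts in WT, 5, 13 and 7 in CS16, and 17, 20 and 15 in CS19. No clone library came near the lowest WT library (log2 fold change -5.74 ± 0.39 SE, edgeR adjusted p = 1.67e-07). *MST1R* therefore went from 8.74 ± 5.98% of the summed TPM of this receptor pair in WT (SD, n = 3) to 0.669 ± 0.374% in the *SNAI1*-KO libraries (SD, n = 6). The WT share was 5.30% without WT replicate 2. Its exons overlap 2 genes on the opposite strand by 327 and 29 bases, and these had at most 1 and 5 counts in any library.

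The ligands of this pair moved less uniformly. *HGF*, the ligand of MET, was at 0 counts in all WT libraries, and had 25, 19 and 26 counts in CS16 and 6, 12 and 4 in CS19. It was called higher in the *SNAI1*-KO libraries (edgeR adjusted p = 0.00305) and in CS16 alone (edgeR adjusted p = 0.000648). In CS19 alone it did not pass the filter on low counts and was not tested. Taking a floor of 3 counts per library for WT, its mean CPM was at least 4.32-fold higher, and with a mean of 0.221 TPM it was a scarce transcript. *MST1*, which encodes macrophage-stimulating protein, had 304, 405 and 239 counts in WT, 173, 147 and 195 in CS16, and 320, 268 and 381 in CS19. The CPM of CS19 overlapped that of WT. The fall of 0.70 ± 0.27 SE on the log2 scale passed at adjusted p (edgeR, 0.0402) but not without WT replicate 2 (-0.41, adjusted p = 0.183).

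Both ligands are secreted as inactive precursors that serine proteases cleave, and SPINT1 and SPINT2 inhibit these proteases. Of 16 genes for ligand processing and binding, 15 were tested. Of these, 2 were called higher and 11 lower, beside 12.6% and 14.3% of all genes tested. Their median log2 fold change was -5.68, beside -0.0040 over all genes tested. *PLAU*, urokinase, which can activate HGF, had 8123, 6621 and 8818 counts in WT and between 19 and 32 in the clone libraries (log2 fold change -8.53 ± 0.21 SE, edgeR adjusted p = 1.61e-10). Both inhibitors were called lower too. *SPINT1* had 141, 219 and 122 counts in WT and at most 4 in a clone library (-6.58 ± 0.37 SE, edgeR adjusted p = 3.26e-08), and *SPINT2* had 1164, 2659 and 1540 in WT, 6, 21 and 15 in CS16, and 40, 38 and 47 in CS19 (-6.37 ± 0.45 SE, edgeR adjusted p = 2.52e-07). Other members with large changes were IGF-binding proteins, described with their receptors.

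*IGF1R* (chr15:98648539-98964530, + strand), which drives growth and survival on binding IGF1 or IGF2, had WT libraries on both sides of the clones. It had 862, 1959 and 585 counts in WT, 1350, 1343 and 1664 in CS16, and 1086, 1061 and 1373 in CS19. WT replicate 2 lay above and WT replicate 3 below every clone library, also as CPM. The mean was 61.6 ± 44.2 CPM in WT (SD, n = 3) and 56.2 ± 10.4 in the *SNAI1*-KO libraries (SD, n = 6), and the difference did not pass (log2 fold change -0.13 ± 0.34 SE, edgeR adjusted p = 0.754). Without WT replicate 2 the sign turned, to 0.62 with an adjusted p of 0.0163, and CS16 and CS19 were then higher at 0.85 (2.88e-05) and 0.38 (0.0126). In CS16 alone it was 0.12 with all libraries, and turned negative without WT replicate 1 or WT replicate 3. The direction of *IGF1R* thus depended on single WT libraries.

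*INSR* (chr19:7112255-7294414, - strand), the insulin receptor, had 1404, 1983 and 1221 counts in WT, 1080, 1137 and 1313 in CS16, and 1193, 1384 and 1678 in CS19. As CPM the highest *SNAI1*-KO library (60.1) stood just under the lowest WT library (62.8). The fall of 0.58 ± 0.18 SE on the log2 scale passed at adjusted p (edgeR, 0.0133), but with no filter on low counts it did not (adjusted p = 0.0599), nor in either clone alone with all libraries. In CS16 it passed without WT replicate 2 (-0.31, adjusted p = 0.00811) or WT replicate 3 (-0.74, adjusted p = 0.0423). The summed TPM of *INSR* and *IGF1R* overlapped between the genotypes, from 21.9 to 63.6 in WT and from 22.5 to 34.0 in the *SNAI1*-KO libraries.

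Ligands of these receptors were hardly transcribed in any library. *IGF1* had at most 2 counts, *IGF2* had 1 count in CS19 replicate 3 and 0 elsewhere, and *INS* had 0 counts in all 9 libraries. None of the 3 passed the filter for testing. The cells were grown in serum, which contains such ligands, and ligand protein was not measured.

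The proteins that bind IGFs in the extracellular space changed identity. *IGFBP4*, an inhibitor of IGF action, had 9067, 36420 and 8704 counts in WT and between 37 and 93 in the clones (log2 fold change -8.77 ± 0.53 SE, edgeR adjusted p = 5.95e-08, and -7.62 without WT replicate 2). *IGFBP3*, the main carrier of IGFs in serum, had 990, 916 and 1156 counts in WT and at most 5 in a clone library (-8.59 ± 0.34 SE, edgeR adjusted p = 2.52e-09). *IGFBP1* had 382, 364 and 421 counts in WT and 0 in all 6 clone libraries, at least 158-fold lower by the same floor. In the opposite direction, *IGFBP5* had at most 2 counts in WT, 1157, 1056 and 1425 in CS16, and 1085, 1226 and 1433 in CS19 (9.44 ± 0.35 SE, edgeR adjusted p = 1.82e-09). *IGFBP2* had 0, 5 and 3 counts in WT and between 1009 and 2544 in the clones (8.88 ± 0.54 SE, edgeR adjusted p = 7.04e-08, and 9.73 without WT replicate 2). Of the summed TPM of *IGFBP1* to *IGFBP7*, *IGFBP4* and *IGFBP7* held 59.9 ± 20.7% and 28.7 ± 16.1% in WT (SD, n = 3), while *IGFBP2* and *IGFBP5* held 57.6 ± 7.0% and 33.4 ± 6.91% in the *SNAI1*-KO libraries (SD, n = 6). That sum was between 1217 and 3880 TPM in WT and between 55.2 and 98.03 in the clones.

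The insulin receptor substrates, which dock to activated INSR and IGF1R and recruit PI3K, also changed identity. *IRS1* had 2548, 4799 and 2475 counts in WT, 134, 104 and 126 in CS16, and 155, 191 and 195 in CS19 (log2 fold change -4.78 ± 0.27 SE, edgeR adjusted p = 3.26e-08). *IRS4* had 1 count in WT replicate 1 and 0 in the others, but 14575, 12897 and 17286 in CS16 and 27510, 30046 and 37205 in CS19. With 1 count in all of WT, the ratio of 56212 has a counting interval that starts at 10089 (95%, exact binomial). As TPM, *IRS1* held 81.5 ± 4.14% of the *IRS1*, *IRS2* and *IRS4* sum in WT (SD, n = 3), and *IRS4* held 98.1 ± 0.662% of it in the *SNAI1*-KO libraries (SD, n = 6). *GRB14*, an adaptor that binds INSR and inhibits its kinase, had 3, 1 and 1 counts in WT and between 254 and 356 in the clones (7.12 ± 0.31 SE, edgeR adjusted p = 5.18e-09, and 7.75 without WT replicate 1).

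**Figure D3:**
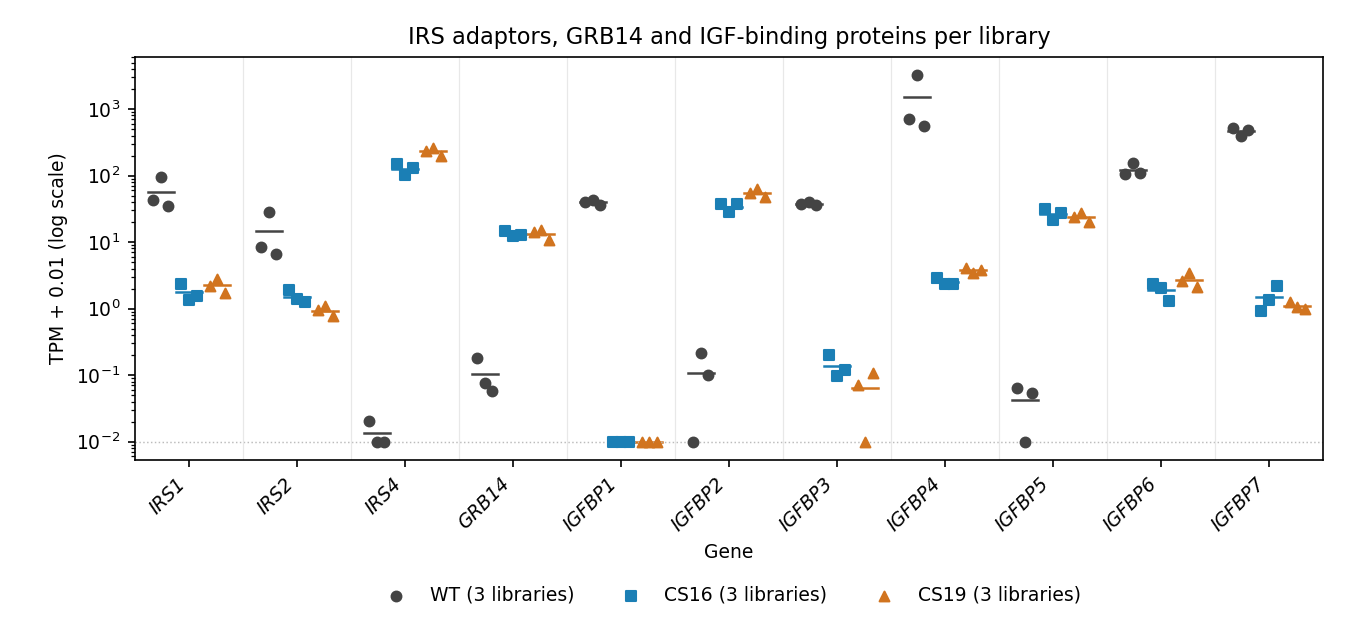
TPM plus 0.01, on a log axis, of the insulin receptor substrates, *GRB14* and the 7 IGF-binding proteins in each library, with bars at the group means and the dotted line at a TPM of 0. *IRS4*, *GRB14*, *IGFBP2* and *IGFBP5* are near 0 in WT and high in both clones, and the others are lower in both clones.

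*PDGFRA* (chr4:54229280-54298245, + strand), the receptor for PDGF-AA and PDGF-CC among others, appeared only in the libraries of the clones beyond 1 count. It had 0, 1 and 0 counts in WT, 34, 26 and 41 in CS16, and 68, 69 and 75 in CS19. It was called higher (log2 fold change 6.56 ± 0.72 SE, edgeR adjusted p = 9.95e-06), and with 1 count in WT its ratio was 126 (95% counting interval 22.5 to 4997). Without WT replicate 2, which held that count, the fitted log2 fold change was 8.64. Its level stayed low, at 0.501 ± 0.134 TPM in CS16 and 0.912 ± 0.186 in CS19 (SD, n = 3). A gene on the same strand, ENSG00000282278, shares 1533 of its exon bases and had 0 counts throughout.

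*PDGFRB* (chr5:150113839-150155872, - strand), which binds PDGF-BB, moved the other way. It had 313, 444 and 255 counts in WT, 6, 2 and 9 in CS16, and 0, 12 and 6 in CS19, with no overlap between WT and the clones (log2 fold change -6.16 ± 0.50 SE, edgeR adjusted p = 7.18e-07). Of the summed TPM of the 2 receptors, *PDGFRB* held 99.9 ± 0.0970% in WT (SD, n = 3), and *PDGFRA* held 86.7 ± 8.47% in the *SNAI1*-KO libraries (SD, n = 6). That sum went from 8.27 ± 3.66 TPM in WT to 0.815 ± 0.299 in the *SNAI1*-KO libraries.

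Of the PDGF ligands, *PDGFC* was the most abundant in WT at 109 ± 30.4 TPM (SD, n = 3), with 4723, 2310 and 5008 counts. It had 322, 331 and 376 counts in CS16 and 432, 429 and 702 in CS19, and was called lower (log2 fold change -3.53 ± 0.21 SE, edgeR adjusted p = 5.77e-08). *PDGFA* was also called lower, with 203, 229 and 237 counts in WT and between 36 and 64 in the clones (-2.43 ± 0.22 SE, edgeR adjusted p = 1.72e-06). *PDGFB*, a ligand of PDGFRB, had between 11 and 34 counts in WT and between 4 and 28 in the clones, with overlapping ranges (-0.73 ± 0.54 SE, edgeR adjusted p = 0.258, and -0.083 without WT replicate 2). *PDGFD* had at most 5 counts and was not tested.

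Relatives of the PDGF receptors in the same kinase class also moved in opposite directions. *KIT*, the stem cell factor receptor, had 4, 1 and 1 counts in WT, 371, 404 and 428 in CS16, and 575, 575 and 769 in CS19 (log2 fold change 7.63 ± 0.39 SE, edgeR adjusted p = 1.72e-08, and 8.51 without WT replicate 1). *CSF1R*, the macrophage growth factor receptor, had 135, 215 and 135 counts in WT and between 6 and 19 in the clones (-4.10 ± 0.31 SE, edgeR adjusted p = 4.39e-07). Of the 10 related and co-receptors listed, 8 were tested, and 1 was called higher and 2 lower, beside 12.6% and 14.3% of all genes tested.

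Markers of the cells that usually carry PDGF receptors and *KIT* were counted beside them. Of 9 pericyte and fibroblast markers 6 were tested. None was called higher and 2 lower (*CSPG4* and *COL1A2*), beside 12.6% and 14.3% of all genes tested. At an unadjusted p below 0.05 in edgeR the same 2 passed, beside 67.1% of all genes tested. Between the clones 5 of these markers were tested and 1 was called, *LUM*, higher in CS16 (log2 fold change 3.31), beside 1.13% of all genes tested. The summed TPM of the 9 was between 22.7 and 68.0 in WT and between 5.83 and 14.6 in the clones. *DCN* and *DES* were at 0 in WT and had counts in the *SNAI1*-KO libraries, 32 in all for *DES*. Both were too scarce to be tested. *PTPRC*, which defines leukocytes, had at most 8 counts in any library.

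*FLT4* (chr5:180601506-180649624, - strand), the receptor of VEGFC and VEGFD, showed the largest rise among the 10. It had 1 count in each WT library, 1023, 983 and 1329 in CS16, and 1039, 1170 and 1325 in CS19. The clones were alike and far from WT (log2 fold change 9.71 ± 0.26 SE, edgeR adjusted p = 2.15e-10). With 3 counts in WT the ratio was 923 (95% counting interval 316 to 4474).

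*FLT1* (chr13:28300346-28495145, - strand), which binds VEGFA, VEGFB and PGF, had 3, 4 and 0 counts in WT, 619, 565 and 752 in CS16, and 192, 213 and 222 in CS19. Both clones stood above WT, and every CS16 library above every CS19 library (log2 fold change of *SNAI1*-KO against WT 7.19 ± 0.89 SE, edgeR adjusted p = 2.56e-05, and 7.85 without WT replicate 2). *KDR* (chr4:55078481-55125595, - strand), the main signalling receptor of VEGFA in endothelium, fell. It had 128, 138 and 157 counts in WT, 24, 35 and 20 in CS16, and 8, 31 and 14 in CS19 (-2.95 ± 0.39 SE, edgeR adjusted p = 4.21e-05).

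The make-up of the VEGF receptor transcripts was thus nearly opposite in WT and the clones. Of the summed TPM of the 3, *KDR* held 98.6 ± 0.801% in WT (SD, n = 3), and 2.38 ± 0.976% in CS16 and 1.81 ± 1.2% in CS19 (SD, n = 3 each). *FLT4* held 0.504 ± 0.0481% in WT, 69.2 ± 1.04% in CS16 and 87.2 ± 1.28% in CS19. *FLT1* held most of the remainder in the clones, 28.4 ± 0.737% in CS16 and 10.9 ± 0.498% in CS19. The sum was 3.80 ± 0.490 TPM in WT, 25.5 ± 4.15 in CS16 and 18.7 ± 3.49 in CS19.

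The ligands *VEGFC* and *VEGFA* fell. *VEGFC*, the ligand of FLT4, had 1087, 1023 and 1061 counts in WT, 8, 17 and 14 in CS16, and 0, 0 and 1 in CS19 (log2 fold change -7.56 ± 0.66 SE, edgeR adjusted p = 1.43e-06). *VEGFA* had 4934, 5850 and 4809 counts in WT, 863, 806 and 1048 in CS16, and 1214, 1191 and 1455 in CS19 (-2.57 ± 0.16 SE, edgeR adjusted p = 6.56e-08). *VEGFB*, a ligand of FLT1, had 705, 1512 and 759 counts in WT and between 372 and 561 in the clones, and was lower at adjusted p without reaching the cut-off (-1.41 ± 0.25 SE, edgeR adjusted p = 0.000398).

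*PGF*, also a ligand of FLT1, kept overlapping ranges, with 70, 151 and 130 counts in WT and between 153 and 258 in the clones (log2 fold change 0.31 ± 0.26 SE, edgeR adjusted p = 0.313). Without WT replicate 2 it was 0.61 with an adjusted p of 0.0446. *VEGFD* had at most 8 counts and was not tested. *NRP1*, the co-receptor that presents VEGFA to KDR, had 12962, 11460 and 12648 counts in WT, 615, 614 and 703 in CS16, and 1821, 1972 and 2577 in CS19 (-3.51 ± 0.39 SE, edgeR adjusted p = 1.08e-05). Of all 16 ligands of the 10 receptors, 11 were tested. Of these, 1 was called higher and 5 lower, beside 12.6% and 14.3% of all genes tested. Their median log2 fold change was -1.41.

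**Figure D4:**
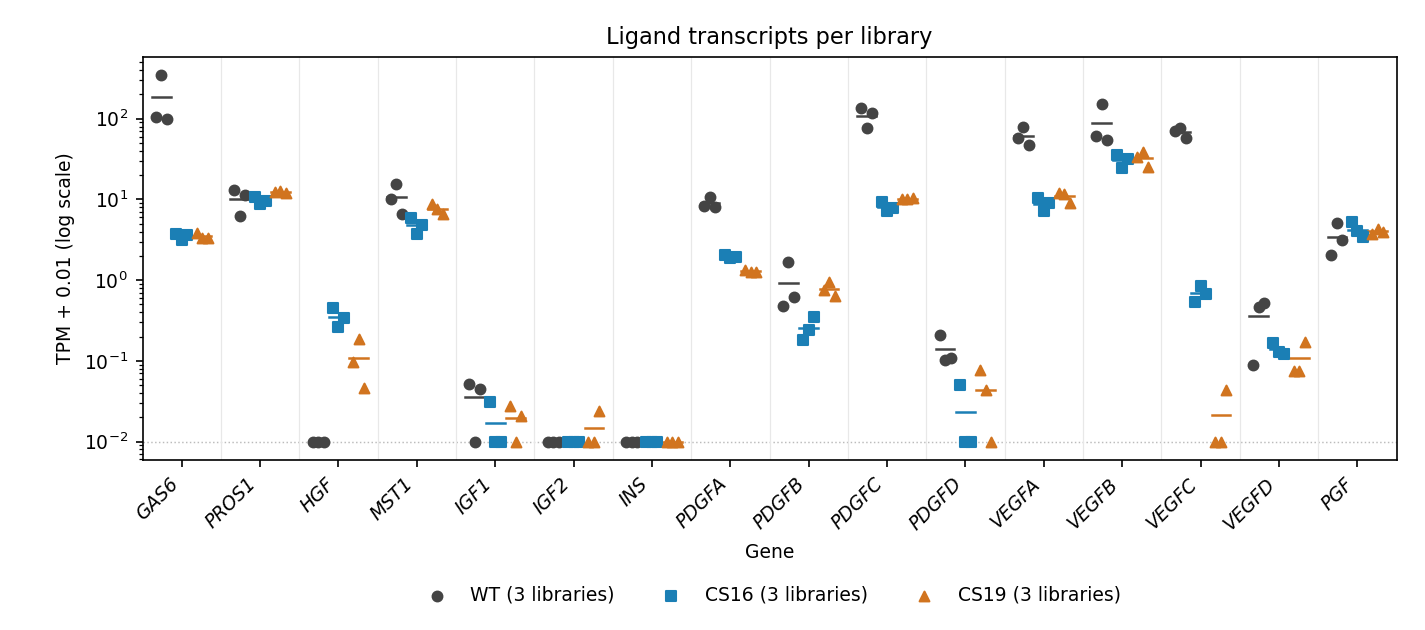
TPM plus 0.01, on a log axis, of the 16 ligands in each library, with bars at the group means and the dotted line at a TPM of 0. *GAS6*, *PDGFA*, *PDGFC*, *VEGFA* and *VEGFC* lie lower in both clones than in WT, *HGF* is seen only in the clones, and *IGF1*, *IGF2* and *INS* lie at or near 0 in all libraries.

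Endothelial markers did not rise with *FLT4* and *FLT1* as a list. Of 13 markers 7 were tested, and 1 was called higher (*SOX18*, with 3 counts in all of WT and 123 in the clones) and 3 lower (*PECAM1*, *ESAM*, *ROBO4*), beside 12.6% and 14.3% of all genes tested. *PROX1*, a transcription factor of lymphatic endothelium, where FLT4 is also known, had 18, 15 and 7 counts in WT, 69, 51 and 73 in CS16, and 17, 18 and 17 in CS19. The CS16 libraries stood above all others, and it did not pass over all *SNAI1*-KO libraries (log2 fold change 1.35 ± 0.65 SE, edgeR adjusted p = 0.0902, and 0.0423 without CS19 replicate 3). It was called in CS16 against WT (2.07 ± 0.40 SE, edgeR adjusted p = 0.00327), where *SOX18* and *PROX1* were the 2 markers called higher, and in CS16 against CS19 (2.05 ± 0.26 SE, edgeR adjusted p = 5.90e-05). It stayed past adjusted p but under the cut-off of 2 without CS16 replicate 1 (1.96 against WT and 1.94 against CS19), WT replicate 3 (1.77) or CS19 replicate 3 (1.90). Their summed TPM was between 82.0 and 181 in WT and between 12.6 and 22.4 in the clones. The defining markers *CDH5* and *ERG* were at 0 in WT and had at most 1 count in any clone library.

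Each clone was also fitted alone against the same 3 WT libraries, so both comparisons share their controls. In CS16, 3 receptors were called higher and 4 lower, against 11.8% and 15.3% of the 18611 genes tested. In CS19, 3 were called higher and 5 lower, against 12.0% and 14.4% of 18935 genes. The additional call in CS19 was *MET*, at -2.10 ± 0.21 SE beside -1.74 ± 0.20 in CS16 on the log2 scale (edgeR adjusted p = 0.000128 and 0.000310). *AXL* was at -12.74 ± 0.60 in CS16 and -12.32 ± 0.50 in CS19, and *FLT4* at 9.77 ± 0.29 and 9.70 ± 0.29. *VEGFC* was at -6.52 in CS16 and at -11.50 in CS19, where 1 count in all 3 libraries gives a ratio of 4188 (95% counting interval 751 to 165458).

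**Figure D5:**
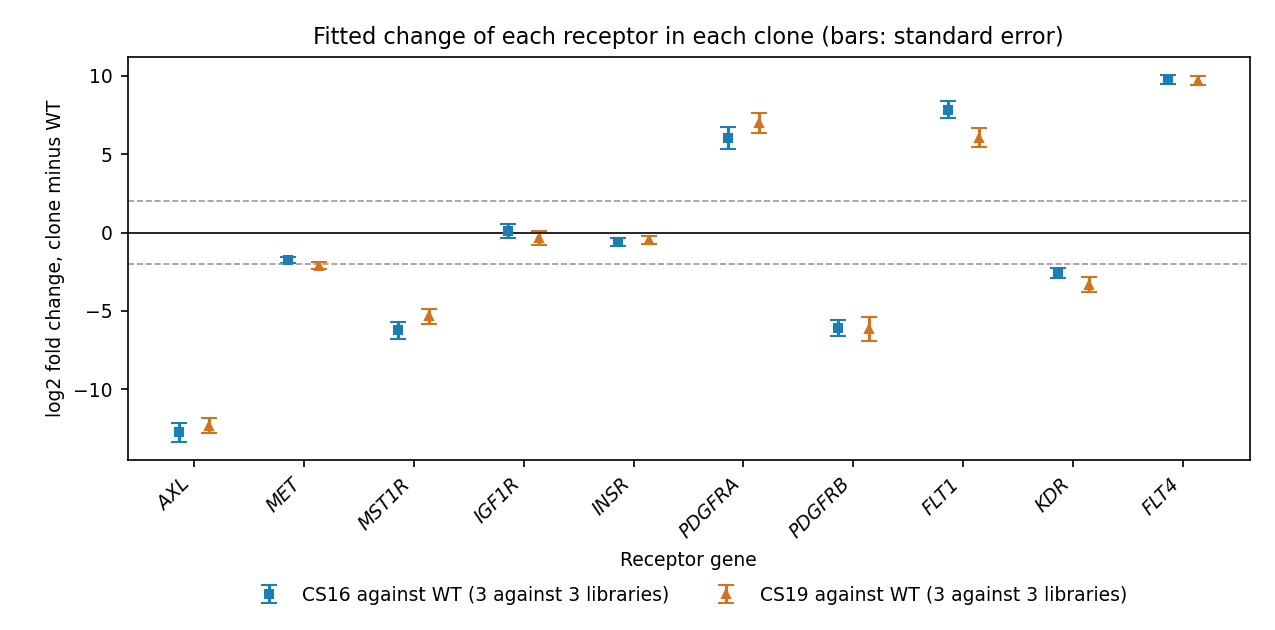
Log2 fold change of each receptor in CS16 and in CS19 against the same 3 WT libraries. Bars are 1 standard error, derived from the F statistic of edgeR's test and hidden where smaller than the symbol. Dashed lines mark the cut-off of 2 in either direction. *AXL* lies lowest and *FLT4* highest in both clones, *IGF1R* and *INSR* lie near 0, and *MET* lies on the lower cut-off, at -1.74 in CS16 and -2.10 in CS19.

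The clones were then compared directly. *AXL* and *PDGFRB* had too few counts in this fit, and of the 8 receptors tested 0 were called by edgeR, and DESeq2 also called 0, while 1.13% of the 17538 genes tested were. At adjusted p alone 4 passed, against 27.4% of all genes, and the same 4 passed at an unadjusted p below 0.05, against 37.5%. *FLT1* was higher in CS16 than in CS19, at 29.1 ± 1.85 against 8.42 ± 1.02 CPM (SD, n = 3 each), a 3.46-fold difference (log2 fold change 1.79 ± 0.11 SE, edgeR adjusted p = 9.76e-08). *IGF1R* (0.48 ± 0.07 SE) and *MET* (0.36 ± 0.07 SE) were slightly higher in CS16 and *PDGFRA* (-0.90 ± 0.22 SE) lower.

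These smaller differences depended on which libraries set the estimate of the spread. In a fit that also held the WT libraries, *FLT1* passed (edgeR adjusted p = 0.00892) and *IGF1R*, *MET* and *PDGFRA* did not (0.713, 0.36 and 0.175). *FLT4* (0.08 ± 0.08 SE) and *INSR* (-0.09 ± 0.07 SE) did not pass between the clones. *MST1R* passed only without CS16 replicate 2 (-1.39, edgeR adjusted p = 0.0496), and *KDR* only without CS19 replicate 2 (1.52, edgeR adjusted p = 0.0156). Of the ligands, 10 were tested and 0 called by edgeR, and 7 passed at an unadjusted p below 0.05, beside 37.5% of all genes tested. Of these, *PDGFB*, *MST1*, *PDGFC*, *PROS1* and *VEGFA* were lower and *HGF* was higher in CS16 at adjusted p.

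Downstream of the receptors, all 28 adaptors and attenuators were tested in *SNAI1*-KO against WT. Of these, 2 were called higher (*IRS4* and *GRB14*) and 9 lower, beside 12.6% and 14.3% of all genes tested. Their median log2 fold change was -0.98. *SOCS3*, which limits cytokine and insulin signalling, had 890, 1024 and 969 counts in WT and between 12 and 36 in the clones (-5.69 ± 0.29 SE, edgeR adjusted p = 1.49e-08). *SOCS1*, of the same family, had 63, 102 and 60 counts in WT and at most 7 in the clones (-4.78 ± 0.47 SE, edgeR adjusted p = 4.02e-06). *ERRFI1*, which inhibits the EGF receptor family, had 7981, 2961 and 8298 counts in WT and between 481 and 694 in the clones (-3.77 ± 0.24 SE, edgeR adjusted p = 8.61e-08).

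For each receptor, the gene most like it over the 9 libraries was found by Pearson's r of log2 CPM, as a description, since the libraries form 2 clusters and many genes then correlate closely. *AXL* was nearest to *MMP14* (r = 0.999), and 518 genes had an r above 0.99 with it. *FLT4* was nearest to *CKMT1B* (r = 1.000, with 678 genes over 0.99), *FLT1* to *WNT11* (0.998), *PDGFRA* to *ADAM11* (0.999), *MET* to *SAMD9* (0.999) and *MST1R* to *ITGB5* (0.997). *IGF1R* was nearest to *PIK3C2B* (0.979), with no gene over 0.99. *INSR* was nearest to *RNF26* (0.994), *PDGFRB* to *PEAR1* (0.992) and *KDR* to *ZDHHC3* (0.987).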

How the data were processed

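RNA was sequenced from 9 libraries. The authors prepared stranded libraries from total RNA after removing ribosomal RNA. They used Trimmomatic 0.36 for trimming, STAR 2.7.2b for alignment to GRCh38, and featureCounts of Subread 2.0.0 for counting read pairs over gencode exons, with a mapping quality cut-off and regardless of strand. The deposited values are whole-number counts per gene, not normalized and not pooled. There were no molecular identifiers, so counting intervals and floors cover counting error only. Samples were grouped by their labels. Symbols were matched for 60463 of 60708 genes.

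The test was edgeR's quasi-likelihood test (4.0.16, R 4.3.3) after filterByExpr and TMM, with Benjamini-Hochberg adjustment, and DESeq2 (1.42.0) was an alternative. Python 3.11.15 with scipy 1.17.1, numpy 2.4.6, pandas 2.3.3 and matplotlib 3.10.9 served for the summaries. The fits were checked on simulated data with the same spread for every gene and changes set only in genes above a minimum mean level. That check does not cover replicates as uneven as those of WT. TPM were computed from counts and exon lengths, and CPM with TMM factors. A floor of 3 counts per library was used for groups at 0, and nearest genes used log2 CPM with a prior count of 2. Motifs were searched in the 250 bases before each start.

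The receptors and gene lists were chosen with earlier results of these data known. The text names all receptors and ligands, the members of the other lists called with the largest changes, up to 4 each way, and marker and label-check genes, except for 1 marker list whose result is not reported here. *TYRO3*, *MERTK*, *IRS2* and *IGFBP7* complete families and were chosen after their values were seen, as was the omission of WT replicate 2 from TPM shares. Alternatives were RLE, upper-quartile, no filter, at least 10 counts in at least 3 libraries, other cut-offs, a replicate block, 1 fit of all 3 groups together, and omission of single libraries.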

Additional observations from a re-analysis of the deposited data

Results flagged for a closer look

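Several receptors differed between the clones, which share a label, by the direct test of CS16 against CS19 (edgeR, log2 fold change of CS16 minus CS19). These were *FLT1* (1.79), *IGF1R* (0.48) and *MET* (0.36), higher in CS16, and *PDGFRA* (-0.90), lower in CS16. Of the ligands, *HGF* (1.81) was higher in CS16, and *PDGFB* (-1.59), *MST1* (-0.74), *PDGFC* (-0.40), *PROS1* (-0.39) and *VEGFA* (-0.34) were lower. All 10 passed at adjusted p, as did 27.4% of all genes tested, and none reached the fold-change cut-off. In the fit that also held the WT libraries, *IGF1R*, *MET* and *PDGFRA* did not pass.

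Among the 6 *SNAI1*-KO libraries, the CPM of *INSR* had 1 library apart from the other 5, CS19 replicate 2, with a gap of 0.654 of the whole range (Dixon's test). Chance flags about 1 in 20 groups.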

How the results depend on the processing

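Of 524 values of receptor fold changes and their alternatives, 509 kept their direction and their side of an adjusted p of 0.05. A further 6 came to pass it, 4 no longer passed and 5 turned. The fold-change cut-off was not part of this count, so *MET* crossing it when single libraries were left out was counted as kept. The 5 that turned were all *IGF1R*, at 0.031 with the replicate block and 0.62 without WT replicate 2 in *SNAI1*-KO against WT, -0.084 without WT replicate 1 and -0.19 without WT replicate 3 in CS16 against WT, and 0.38 without WT replicate 2 in CS19 against WT. The cause was not tested. Leaving out each library gave *IGF1R* values between -0.43 and 0.62 in *SNAI1*-KO, -0.19 and 0.85 in CS16, and -0.67 and 0.38 in CS19.

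Between 7 and 8 receptors were called in *SNAI1*-KO against WT when each library was left out in turn, 7 in CS16 against WT, 8 in CS19 against WT and 0 between the clones. Without a fold-change cut-off 4 receptors passed between the clones, and with a cut-off of 1 there was 1 (*FLT1*). Over all genes, adjusted p alone gave 12506, 10342, 10014 and 4814 genes in *SNAI1*-KO, CS16 and CS19 against WT and in CS16 against CS19, and a cut-off of 1 gave 9251, 8567, 8309 and 833. With no filter, in which far more genes were tested, 8662, 7513 and 352 were called in *SNAI1*-KO and CS19 against WT and in CS16 against CS19. Leaving out a library gave between 5165 and 5963 genes in *SNAI1*-KO against WT, 5176 and 5823 in CS16, 5167 and 5743 in CS19, and 224 and 258 between the clones.

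Replicate numbers did not pair the libraries (correlations of same-numbered deviations between -0.21 and 0.19). With the replicate number as a block 7 receptors and 5220 genes were called in *SNAI1*-KO against WT, beside 7 and 5272 without it.

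Genes with few counts in WT (*FLT4*, *PDGFRA*, *HGF*) have folds limited by counting, as their intervals and bounds show. *FLT1* also had few counts in WT, and no interval was computed for it.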
